A study of Mus musculus with 12 samples.

Results

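The comparison described here asks whether a Cre recombinase meant to delete liver X receptors from thymic epithelium had a different effect on gene expression in the cortex than in the medulla. For every gene it took the log2 fold change of Cre over control libraries in cortical thymic epithelial cells (cTEC), subtracted the same log2 fold change in medullary thymic epithelial cells (mTEC), and tested the result against 0. These quantities are called the cTEC effect, the mTEC effect and the difference throughout. A positive difference means that the effect was the higher one in cTEC. All 31332 genes of the count table belonged to the comparison, and the 17268 that passed a filter on low counts were tested.

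The thymic epithelium is the scaffold in which T cells develop. cTEC present the self peptides on which young thymocytes are positively selected and supply the Notch ligand Dll4 and the chemokine Ccl25. mTEC display tissue antigens, many of them under the control of Aire, and mature through signals from the receptors RANK and CD40. Liver X receptors α and β (genes Nr1h3 and Nr1h2) are nuclear receptors for oxidised sterols. Together with retinoid X receptors they switch on genes of cholesterol export, such as Abca1 and Abcg1, and of fatty acid synthesis, such as Srebf1 and the stearoyl-CoA desaturases.

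All mice were of strain C57BL6/J, 2 months of age, and carried LXRalpha flox and LXR beta flox alleles. The Cre animals carried FoxN1-Cre in addition, which is driven by the promoter of Foxn1, a transcription factor of thymic epithelium, and so is active in both cell types. The controls carried the floxed alleles without Cre. No group carried Cre without the floxed alleles, so Cre itself and loss of the receptors cannot be told apart. Cells were sorted by flow cytometry, and there were 3 libraries in each of 4 groups, numbered 1 to 3 (mTEC control), 4 to 6 (mTEC Cre), 7 to 9 (cTEC control) and 10 to 12 (cTEC Cre). The labels do not say which libraries came from separate animals, nor whether a cTEC and an mTEC library share one, so p-values measure the spread between these libraries, which may be technical. In bulk samples, fewer cells of a type and less RNA per cell cannot be told apart.

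Total counts ran from 4804697 to 11159013 per library, with library 11 the shallowest. The 6 cortical markers summed to 4487 to 5688 CPM (counts scaled to library size) in control cTEC and to 555 to 568 in control mTEC, and the 6 medullary markers to 1434 to 1573 and 5310 to 5577, so the sums followed the labelled cell types. In control cTEC most of the medullary sum was Krt5 (1365 to 1512 CPM), and the other 5 markers together held 60.7 to 69.1 CPM, against 1840 to 2016 in control mTEC. In Cre cTEC the cortical sum was 4971 to 12240 and the medullary sum 846 to 1040, with Krt5 at 776 to 937 CPM and the other 5 markers at 69.9 to 103. The cortical sum of library 11 lay closest to the controls, and the correlation between libraries 10 and 11, 0.9665 across genes, was the lowest within any group. Counts here cover whole genes, so Nr1h2 and Nr1h3 do not show whether the floxed exons were lost. The difference in Nr1h2 was 0.04 (95% interval -0.34 to 0.42), with effects of -0.58 in cTEC and -0.63 in mTEC. For Nr1h3 neither effect passed (0.13 in cTEC and 0.28 in mTEC), and the difference was -0.15 (95% interval -0.87 to 0.57). Its level was low, with group means of 6.30 to 8.38 CPM. Foxn1 had effects of -1.53 and -1.63 with a difference of 0.10 (95% interval -0.94 to 1.13). None of these differences passed the test. That of Foxn1 was 1.00 without library 4 and -0.27 without library 5.

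The difference passed for 692 genes, 4.01% of those tested, by edgeR's quasi-likelihood test at a Benjamini-Hochberg adjusted p below 0.05. It was the higher one in cTEC for 505 genes (2.92%) and the lower one in cTEC for 187 (1.08%). The median difference over all tested genes was -0.04. Within cTEC alone 9.01% of genes passed the same test, and within mTEC 2.07%. The smallest difference that passed was 0.51 on the log2 scale, and the median standard error for genes of at least 5 CPM was 0.19. The count was 1644 without library 11 (1082 higher and 562 lower) and between 371 and 459 without library 1, 3, 5, 7 or 9. With voom it was 1398 (811 higher and 587 lower). Of calls with at least a 2-fold difference, 217 were higher and 88 lower, and this balance turned to 332 and 417 without library 11 and to 236 and 310 with voom.

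Among the 505 genes with the higher effect in cTEC, 401 had a positive cTEC effect and a negative mTEC effect, 97 were positive in both and 7 were negative in both. The median cTEC effect of these genes was 0.77 and the median mTEC effect -0.17. The effect passed its own test only in cTEC for 402 of them and only in mTEC for 42. It passed in both for 16 and in neither for 45. Among the 187 genes with the lower effect in cTEC, 135 were negative in cTEC and positive in mTEC and 49 were negative in both, with medians of -0.66 and 0.27. Here 120 passed only in cTEC, 23 only in mTEC, 10 in both and 34 in neither. The effect was the larger in size in cTEC for 85.9% of the first set and 73.3% of the second. Genes of opposite sign that both passed numbered 14 and 4.

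**Figure D1:**
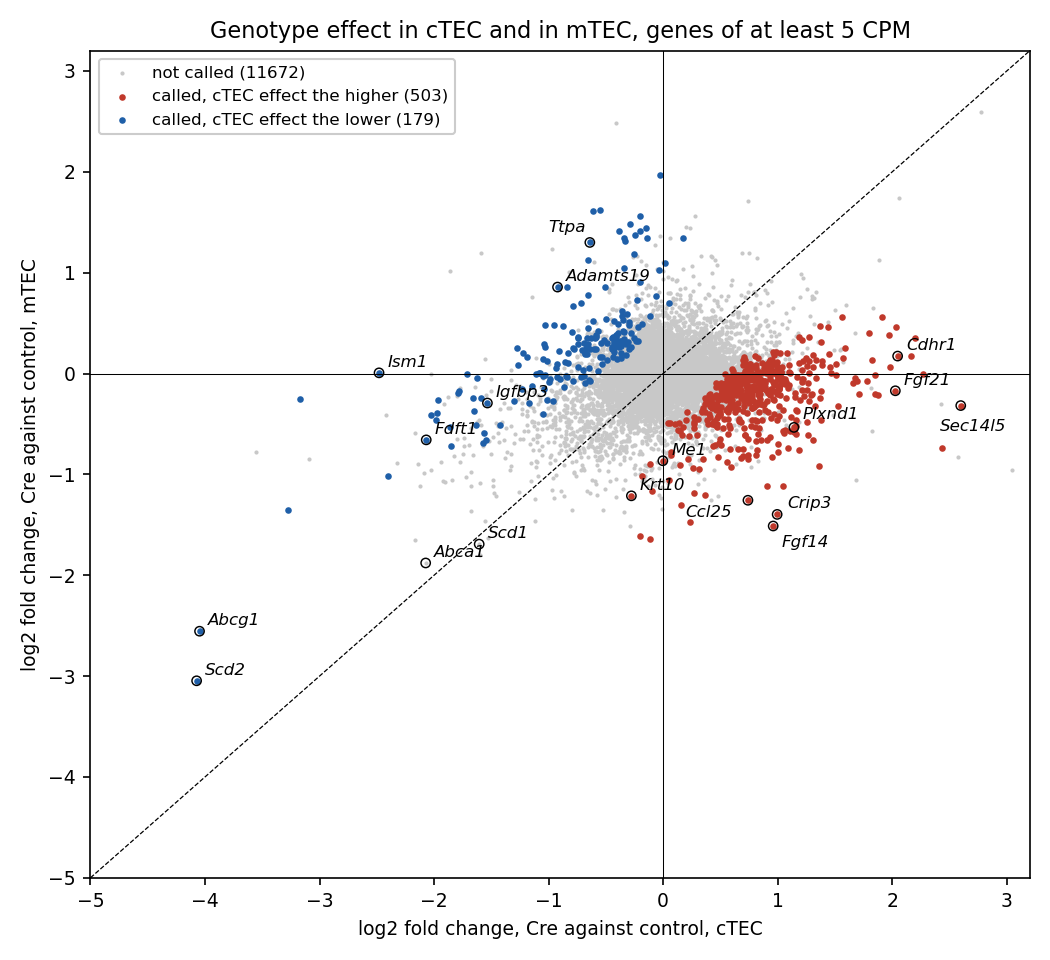
Each point is a gene with a mean of at least 5 CPM, with its log2 fold change of Cre over control in cTEC on the x axis and in mTEC on the y axis; the dashed line marks equal effects, and 4 of 12354 genes lie outside the axes. The 503 red genes (higher effect in cTEC) spread mostly along the x axis to the right and the 179 blue ones to the left, while the lipid genes Abcg1 and Scd2 lie far down on both axes and above the line.

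Of all genes with a mean of at least 5 CPM, the lipid genes Scd2 and Abcg1 had the lowest fitted effect in both cell types, and for several lipid genes the fall was deeper in cTEC. Abcg1, an exporter of cholesterol and a direct target of the receptors, stood at 62.8, 82.9 and 73.2 CPM in cTEC controls and at 3.58, 6.02 and 4.09 in Cre cTEC. In mTEC it went from 155, 158 and 151 CPM to 22.5, 26.2 and 29.9. The groups were far apart in both cell types, and the residual level was higher in mTEC. The effects were -4.05 and -2.56, and the difference was -1.49 ± 0.23 (SE, adjusted p = 0.0015). On the CPM scale the loss was larger in mTEC, by 59.8 CPM, because its control level was higher, so the direction of this difference holds for the fold change only. The 16 macrophage and dendritic cell markers summed to 352 to 476 CPM in Cre mTEC and to 145 to 171 in Cre cTEC. Their part in the residual Abcg1 and Scd2 was not tested.

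Scd2, a stearoyl-CoA desaturase, fell from 396, 573 and 616 CPM to 30.5, 30.5 and 33.0 in cTEC. In mTEC it fell from 586, 532 and 594 to 59.8, 66.0 and 81.3. The control levels of the cell types were alike and the Cre levels were not, which gave a difference of -1.03 ± 0.21 (adjusted p = 0.0097). On the CPM scale the Scd2 losses differed by 5.42 CPM, in the other direction.

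Fdft1, squalene synthase, the first enzyme committed to sterols, stood at 28.0, 51.0 and 61.8 CPM in cTEC controls and at 14.0, 8.94 and 10.1 in Cre cTEC. In mTEC the values were 23.8, 25.7 and 28.0 in controls and 15.7, 16.4 and 16.9 in Cre libraries. The difference was -1.41 ± 0.31 (adjusted p = 0.0134), and the mTEC effect of -0.66 did not pass its own test. Mid1ip1, which activates acetyl-CoA carboxylase, had effects of -2.40 and -1.02 and a difference of -1.38. Acsl3, an acyl-CoA synthetase of lipid droplets, had effects of -1.56 and -0.59 and a difference of -0.97. Fads1, a desaturase of polyunsaturated fatty acids, fell only in cTEC by its own tests (effects -1.02 and 0.12), with a difference of -1.14. These 6 genes, from Abcg1 to Fads1, stayed called whichever of the 12 libraries was left out.

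Vldlr, the receptor for very-low-density lipoprotein, moved in opposite directions. It fell from 161, 152 and 141 CPM to 104, 107 and 126 in cTEC and rose from 21.3, 18.6 and 19.2 to 29.5, 30.0 and 25.8 in mTEC. Neither pair of groups overlapped, and the difference was -0.95 ± 0.16 (adjusted p = 0.00263). Srebf1, the transcription factor that drives fatty acid synthesis genes, had effects of -1.85 in cTEC and -0.72 in mTEC and a difference of -1.13 (adjusted p = 0.0208). Leaving out library 1, 2, 5 or 9 ended this call (highest adjusted p 0.0693), as did the robust fit.

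For other targets of the receptors no difference was detected. Abca1, the exporter that loads cholesterol onto apolipoprotein A-I, went from 96.7, 96.4 and 84.9 CPM to 21.8, 28.4 and 16.5 in cTEC. It went from 141, 133 and 118 to 29.8, 33.6 and 43.1 in mTEC. Its difference of -0.20 (95% interval -0.66 to 0.27) did not pass, and that interval does not reach the difference seen in Abcg1. Scd1, another desaturase, had effects of -1.61 and -1.69 and a difference of 0.09 (95% interval -0.50 to 0.67). Mylip, a ubiquitin ligase, had a difference of -0.49 (95% interval -0.81 to -0.17) with an adjusted p of 0.0836, and passed under DESeq2, voom and the stricter filter of 5 CPM in 3 libraries.

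As groups, 3 of 26 receptor targets had the lower effect in cTEC (Abcg1, Scd2 and Srebf1) and 1 the higher (Abca7, 1.12), with a median difference of -0.14. That is 15.4% called, against 4.01% of all genes. Without library 11 there were 4 targets in each direction, and Abca7 was not called without library 7 or with the length and GC offsets. In cholesterol synthesis and uptake 3 of 27 had the lower effect in cTEC, Fdft1 and Sc4mol among them, and 0 the higher, with a median difference of -0.34. That is 11.1% called, against 4.01% of all genes. In that list 17 members fell and 1 rose in cTEC, and 1 fell in mTEC, by their own tests. Most of the list thus moved in cTEC without its difference reaching the threshold. Over all genes 9.01% passed in cTEC and 2.07% in mTEC, in either direction. The median effect of the list was -0.63 in cTEC and -0.37 in mTEC, so it was below 0 in both cell types. Sc4mol, a sterol methyl oxidase, had a difference of -0.89 whose call held only without 3, 7 or 11 in turn (highest adjusted p 0.133). Without library 7, 5 members of the cholesterol list had the lower effect in cTEC. The median difference of that list ran from -0.56 without library 7 to -0.13 without library 9, and was -0.14 without library 11.

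Fatty acid synthesis was split. Of 28 members, 5 had the lower effect in cTEC (Scd2, Fads1, Mid1ip1, Acsl3 and Srebf1) and 3 the higher (Me1, Acsl1 and Acsl4), and without library 11 there were 5 of each. With all 12 libraries 28.6% of the list passed, against 4.01% of all genes. Me1, the malic enzyme that supplies NADPH for fatty acid synthesis, stood at 38.7, 44.9 and 48.3 CPM in cTEC controls and at 53.1, 36.0 and 41.7 in Cre cTEC, which overlap. In mTEC it fell from 92.4, 89.2 and 107 CPM to 47.9, 45.9 and 63.9 with no overlap. Its difference of 0.86 (adjusted p = 0.0245) lost its call when library 1, 3, 5, 7 or 10 was left out (highest adjusted p 0.0779), and then no member of the list had the higher effect in cTEC. Acsl1 and Acsl4 had cTEC effects of -0.12 and 0.04 and mTEC effects of -0.90 and -0.49, and kept their calls in 3 and 4 of the 12 fits without 1 library. Fatty acid synthesis thus held called members in each direction, but the calls for a deeper fall in mTEC depended on single libraries. In RefSeq promoter windows of GRCm38.p6, from 250 bases before to 50 after a start, the sterol element TCACNCCAC was found on either strand in 388 of 27025 genes (1.44%), in 2 of 24 genes of fatty acid synthesis (8.33%), in 0 of 19 of cholesterol synthesis and uptake, in 1 of 17 receptor targets and in 3 of 125 called genes with the lower effect in cTEC (2.4%). AGGTCA repeated in 1 direction with 4 bases between the copies was found in 4 of the 27025 and in 0 of those 24, 19, 17 and 125. This exact match is too rare for sets of such size, so the counts do not show whether these genes have receptor sites.

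**Figure D2:**
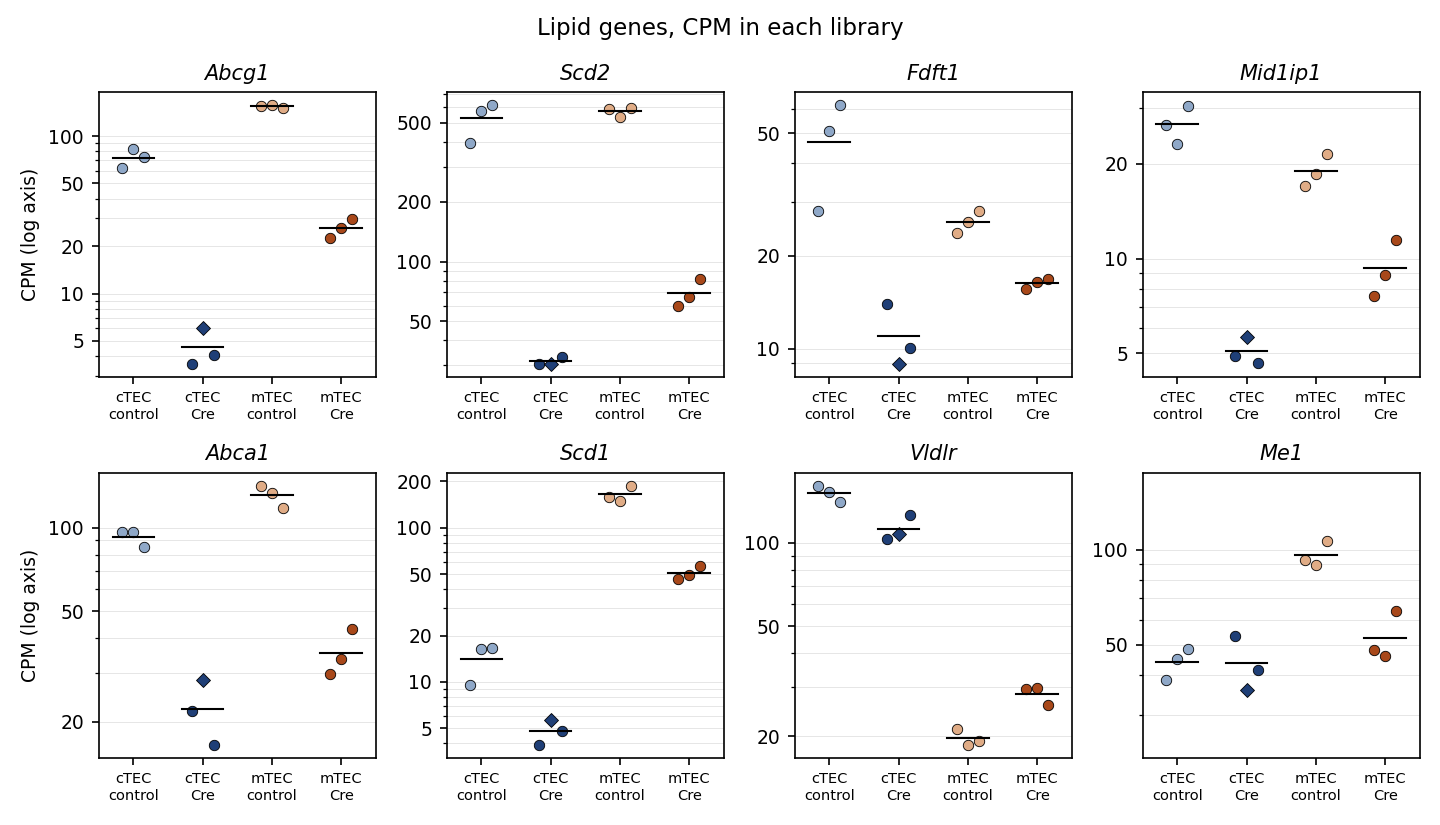
CPM of 8 lipid genes in each library, on log axes, by group; bars are group means and the diamond is library 11. Abcg1, Scd2, Fdft1 and Mid1ip1 had the lower effect in cTEC, Abca1 and Scd1 fell by like factors, Vldlr fell in cTEC and rose in mTEC, and Me1 fell in mTEC alone.

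Several genes of cTEC or thymic epithelium had a positive effect in cTEC and a negative one in mTEC. Ccl25, the chemokine that draws progenitors into the thymus, stood at 441, 630 and 482 CPM in cTEC controls and at 1174, 513 and 903 in Cre cTEC. In mTEC it fell from 154, 168 and 188 CPM to 89.5, 51.1 and 72.6. The cTEC groups overlapped, because library 11 lay among the controls, while the mTEC groups were apart. The difference was 2.00 ± 0.33 (adjusted p = 0.0022), from effects of 0.74 and -1.26. Without library 11 it was called as well.

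Crip3, a LIM domain protein of the thymus, showed the same pattern. Its values were 101, 163 and 131 CPM in control cTEC and 370, 160 and 255 in Cre cTEC. In mTEC they were 128, 135 and 149 CPM in controls and 61.5, 46.5 and 48.4 in Cre libraries. Library 11 again overlapped the controls. The effects of 0.99 and -1.40 both passed, and the difference was 2.39 ± 0.31 (adjusted p = 0.000647). Fgf14, an intracellular member of the fibroblast growth factor family, had effects of 0.96 and -1.51 and a difference of 2.47 ± 0.40 (adjusted p = 0.00219).

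Dll4, through which cTEC engage Notch1 on incoming progenitors, stood at 31.1, 68.8 and 53.1 CPM in cTEC controls and at 157, 64.5 and 119 in Cre cTEC. In mTEC it stood at 28.4, 25.5 and 29.9 CPM in controls and at 16.3, 24.4 and 14.6 in Cre libraries. Its difference of 1.77 ± 0.39 passed (adjusted p = 0.0137), as did the cTEC effect of 1.16, while the mTEC effect of -0.60 did not. The robust fit did not call Dll4. Tbata, a regulator of thymic epithelial growth, had effects of 1.16 and -0.52 and a difference of 1.69 ± 0.32 (adjusted p = 0.00579). Ly75, the endocytic receptor DEC-205 of cTEC, had a difference of 1.19 (adjusted p = 0.0259), and leaving out library 1, 4, 7 or 9 ended the call (highest adjusted p 0.0896). Kitl, the ligand that sustains early progenitors, had a difference of 0.90 that was kept in 5 of the 12 fits without 1 library and lost without 1, 2, 5, 6, 7, 9 or 10.

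These 5 genes (Ccl25, Dll4, Tbata, Ly75 and Kitl) were the called ones of 20 cTEC identity genes (25% against 2.92% of all genes), and the list's median difference was 0.13. The count was 8 without library 11 and 3 without library 1, 7 or 9. Other cTEC genes did not pass. Psmb11, the catalytic subunit of the thymoproteasome, stood at 254, 435 and 372 CPM in cTEC controls and at 995, 372 and 723 in Cre cTEC, with a difference of 0.61 (95% interval -0.33 to 1.55). Prss16, the thymus-specific serine protease, had a difference of 0.63 (95% interval -0.11 to 1.37), and passed without library 11 (0.96, adjusted p = 0.0197). For both the interval includes a difference as large as that of Ly75. Library 10 lay above every control cTEC library in 17 of the 20 genes, library 12 in 16 and library 11 in 4. Of the medullary markers, Krt5 was lower in all 3 Cre cTEC libraries than in any control and the sum of the other 5 was higher. That sum mixes directions, because Tnfrsf11a rose in cTEC while Aire was lower in all 3 Cre cTEC libraries than in any control. The part of the medullary markers in these values was not tested.

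Apart from Crip3 and Fgf14, several genes passed in both cell types with opposite signs. Plxnd1, a semaphorin receptor that guides migrating thymocytes, had the lowest p of all named genes. It stood at 23.3, 22.2 and 22.8 CPM in cTEC controls and at 52.9, 50.5 and 47.4 in Cre cTEC. In mTEC it stood at 49.8, 44.0 and 39.5 CPM in controls and at 27.8, 31.8 and 32.5 in Cre libraries. No groups overlapped within a cell type, and the order of the cell types reversed: mTEC over cTEC was 0.97 log2 units in controls and -0.71 in Cre libraries. The difference was 1.68 ± 0.17 (adjusted p = 9.7e-05).

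Further genes that rose in cTEC and fell in mTEC were Itpr3, a calcium channel of the endoplasmic reticulum (1.00 and -0.69), Basp1 (0.87 and -0.46), Tmed8 (0.70 and -0.75), the lipoxygenase Alox12e (0.80 and -0.53) and Trib3, a pseudokinase of the stress response (1.18 and -0.76). The reverse held for Adamts19, a secreted metalloprotease, and Sgce, ε-sarcoglycan. Adamts19 fell from 29.9, 19.5 and 29.8 CPM to 12.4, 17.9 and 12.1 in cTEC and rose from 9.70, 8.10 and 7.45 to 13.4, 17.3 and 15.4 in mTEC, for a difference of -1.78 ± 0.28 (adjusted p = 0.00187). Sgce had effects of -0.65 and 0.78 and a difference of -1.44. All of these were called in every fit without 1 library.

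**Figure D3:**
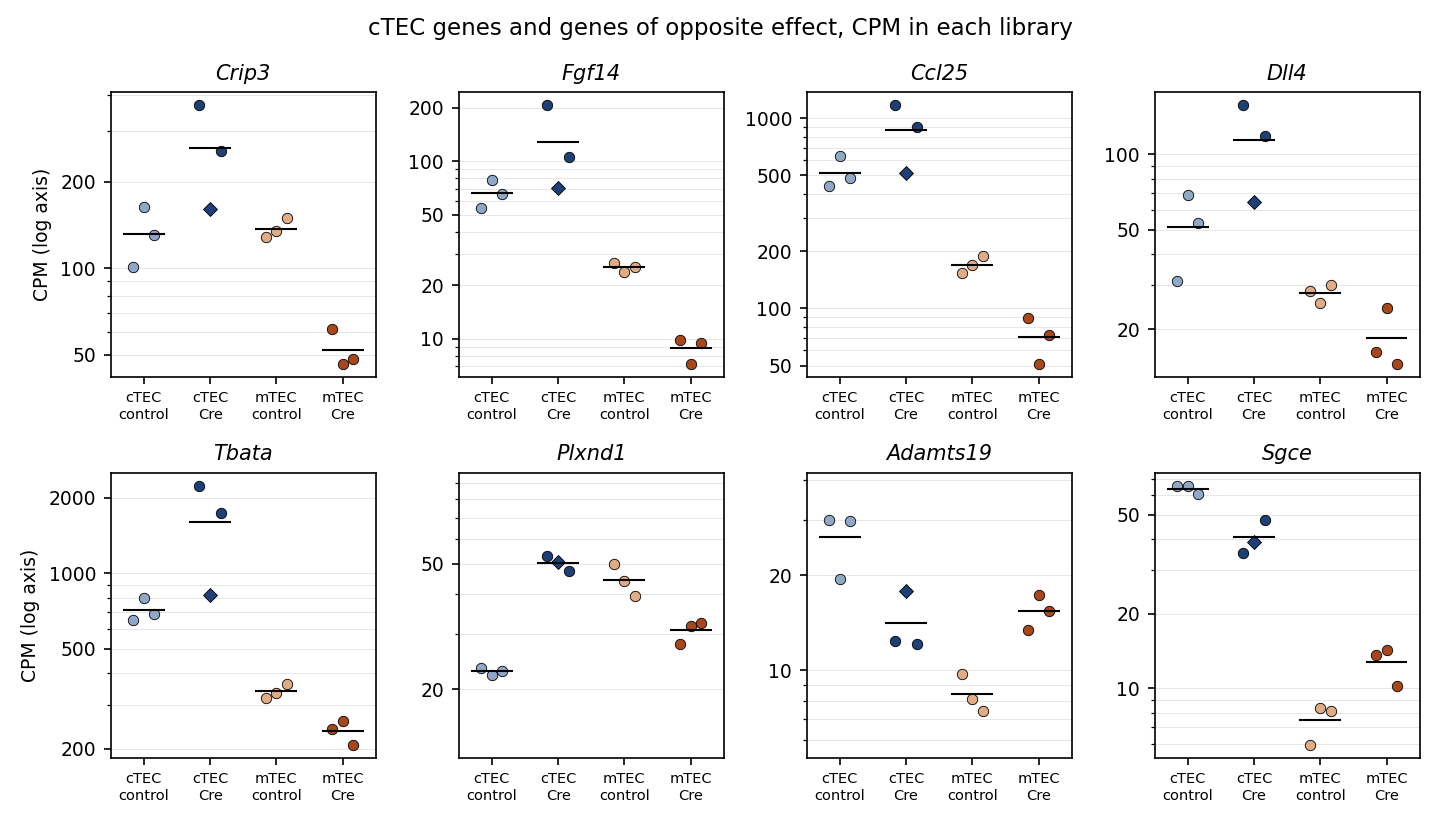
CPM of 8 genes in each library, on log axes, by group; bars are group means and the diamond is library 11. In Crip3, Fgf14, Ccl25, Dll4 and Tbata library 11 lies near the control cTEC libraries while libraries 10 and 12 lie above them, whereas in Plxnd1 the 3 Cre libraries sit together at 47.4 to 52.9 CPM.

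The largest number of calls came from genes that rose in cTEC and whose mTEC effect did not pass. Control means were higher in mTEC than in cTEC for 447 of the 505 genes with the higher effect in cTEC (88.5%). That share was 47.6% over all tested genes and 15% among the 187 genes with the lower effect. Whether medullary cells sorted along with cortical ones had a part in these calls was not tested. Cdhr1, a cadherin-related protein known from photoreceptors, stood at 4.50, 4.88 and 5.28 CPM in cTEC controls and at 19.5, 24.7 and 17.4 in Cre cTEC. In mTEC it stood at 332, 290 and 307 CPM in controls and at 347, 338 and 362 in Cre libraries. The cTEC groups were apart, with library 11 the highest, and the level in cTEC remained far under that of mTEC. The gap of mTEC over cTEC was 5.98 log2 units in controls and 4.10 in Cre libraries, a difference of 1.87 ± 0.20 (adjusted p = 0.000173). On the CPM scale the increase was larger in mTEC, by 23.8 CPM, so this direction too holds for the fold change only.

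Fgf21, a fasting hormone of the fibroblast growth factor family, rose from 2.25, 2.52 and 2.28 CPM to 8.49, 11.9 and 9.07 in cTEC. In mTEC it stood at 216, 199 and 221 CPM in controls and at 166, 175 and 223 in Cre libraries, which overlap. The difference was 2.20 ± 0.26 (adjusted p = 0.000356). Others with this pattern and a difference of over 1.5 were Sec14l5 (2.92), Rnf183 (2.28), the spectrin Spnb1 (2.09), Kndc1 (2.04), the copper transporter Atp7b (2.00), Sipa1l2 (1.97), the secreted kinase Pkdcc (1.69), the microfibril protein Fbn1 (1.65), the membrane metalloprotease Mmp15 (1.52) and the lipid transporter Abca2 (1.51). Their mTEC effects lay between -0.66 for Sipa1l2 and 0.17 for Atp7b, and none of them passed. Tle3, a Groucho corepressor, and Gtf3c1, a subunit of the factor that recruits RNA polymerase III, had differences of 1.37 and 1.23. The 12 genes from Sec14l5 to Gtf3c1 were called in every fit without 1 library. Lrat, which esterifies retinol, had the largest difference of the named genes, 3.17 ± 0.60 (adjusted p = 0.00576), and was not called in the robust fit. Its level in library 12, 34.8 CPM, lay above every mTEC library (10.7 to 23.6 CPM), while libraries 10 and 11 held 9.05 and 8.36 CPM and control cTEC 2.28 to 4.88.

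Receptors and signalling proteins of the RANK, CD40 and NF-κB pathway had 7 of 21 called (33.3% against 4.01% of all genes), all with the higher effect in cTEC and a median difference of 0.54 against -0.04 over all genes. The count was 11 without library 11, with DESeq2 and with voom, 4 without library 9 and 5 with length and GC offsets. This pathway drives mTEC maturation through the kinase NIK and the processing of Nfkb2. Map3k14, which encodes NIK, stood at 36.8, 39.7 and 40.7 CPM in cTEC controls and at 88.7, 62.6 and 68.7 in Cre cTEC. In mTEC it stood at 105, 92.4 and 101 CPM in controls and at 77.4, 90.4 and 93.2 in Cre libraries. The cTEC groups were apart, the mTEC effect of -0.19 did not pass, and the difference was 1.11 ± 0.18 (adjusted p = 0.00204).

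Cd40 stood at 12.3, 15.5 and 16.3 CPM in cTEC controls and at 40.8, 20.2 and 26.8 in Cre cTEC, with a difference of 1.23 ± 0.26 (adjusted p = 0.00944). Tnfrsf11a, which encodes RANK, rose from 18.2, 22.0 and 20.6 CPM to 42.4, 35.6 and 29.7 in cTEC, while mTEC held 378 to 445 CPM in both genotypes. Its difference was 0.86 ± 0.19 (adjusted p = 0.0133). Traf3, a negative regulator of NIK, had a difference of 0.92 that was lost with length and GC offsets, and Nfkb2 one of 0.82 that was lost without library 9 (adjusted p = 0.0524). Both receptor genes stayed called without any 1 library. Rel, an NF-κB subunit, had a fall in mTEC instead (effects 0.15 and -0.90), and its difference of 1.05 was not called without 1, 8, 9 or 10 (highest adjusted p 0.0773). Tnfaip3, the feedback inhibitor A20, had a difference of 0.62 that was kept in 3 of the 12 fits without 1 library, namely those without 4, 6 or 11.

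Of 24 genes of mature mTEC, 25% passed, against 4.01% of all genes. The effect in cTEC was the lower for 1 and the higher for 5, with a median difference of 0.30. Besides Cd40 and Tnfrsf11a these were Fezf2, a transcription factor of tissue antigen expression, with a difference of 0.96, Irf8 with 1.07 and Cd274, which encodes PD-L1. Cd274 owed its difference of 1.30 ± 0.25 (adjusted p = 0.00572) mostly to a fall in mTEC, from 194, 186 and 178 CPM to 97.4, 109 and 109, while its cTEC effect of 0.48 did not pass. Aire stood at 795, 862 and 935 CPM in control mTEC and at 490, 566 and 867 in Cre mTEC. In cTEC it was low, at 10.03, 9.92 and 10.85 CPM in controls and at 2.91, 9.52 and 4.825 in Cre libraries. Its effects of -0.95 in cTEC and -0.43 in mTEC did not pass. Nor did its difference of -0.51 (95% interval -1.32 to 0.29). The 1 gene with the lower effect, Hdc, lost its call without any of 10 libraries, all but 4 and 11 (adjusted p up to 0.148).

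The genes of Notch receptors 1, 2 and 3, which pass on contact signals between neighbouring cells, had the higher effect in cTEC. Notch3 stood at 4.50, 6.39 and 9.56 CPM in cTEC controls and at 25.9, 32.3 and 24.4 in Cre cTEC, and between 37.5 and 52.9 CPM in every mTEC library. The cTEC groups were apart and the Cre cTEC libraries approached the mTEC level. The difference was 1.91 ± 0.26 (adjusted p = 0.000969). Notch2 had a difference of 1.06, Notch1 of 0.75 and the target gene Heyl of 1.42, all from rises in cTEC with mTEC effects between -0.06 and 0.15. The offsets for length and GC removed the call of Notch1, and the robust fit that of Heyl. Of the ligands, Dll4 had the higher effect in cTEC, as given above, and Dll1 the lower, with effects of -0.44 and 0.35 and a difference of -0.80 ± 0.17 (adjusted p = 0.00991). In all, 6 of 19 tested Notch genes passed, 31.6% against 4.01% of all genes, with a median difference of 0.36. The count was 4 in the robust fit and 5 with length and GC offsets.

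**Figure D4:**
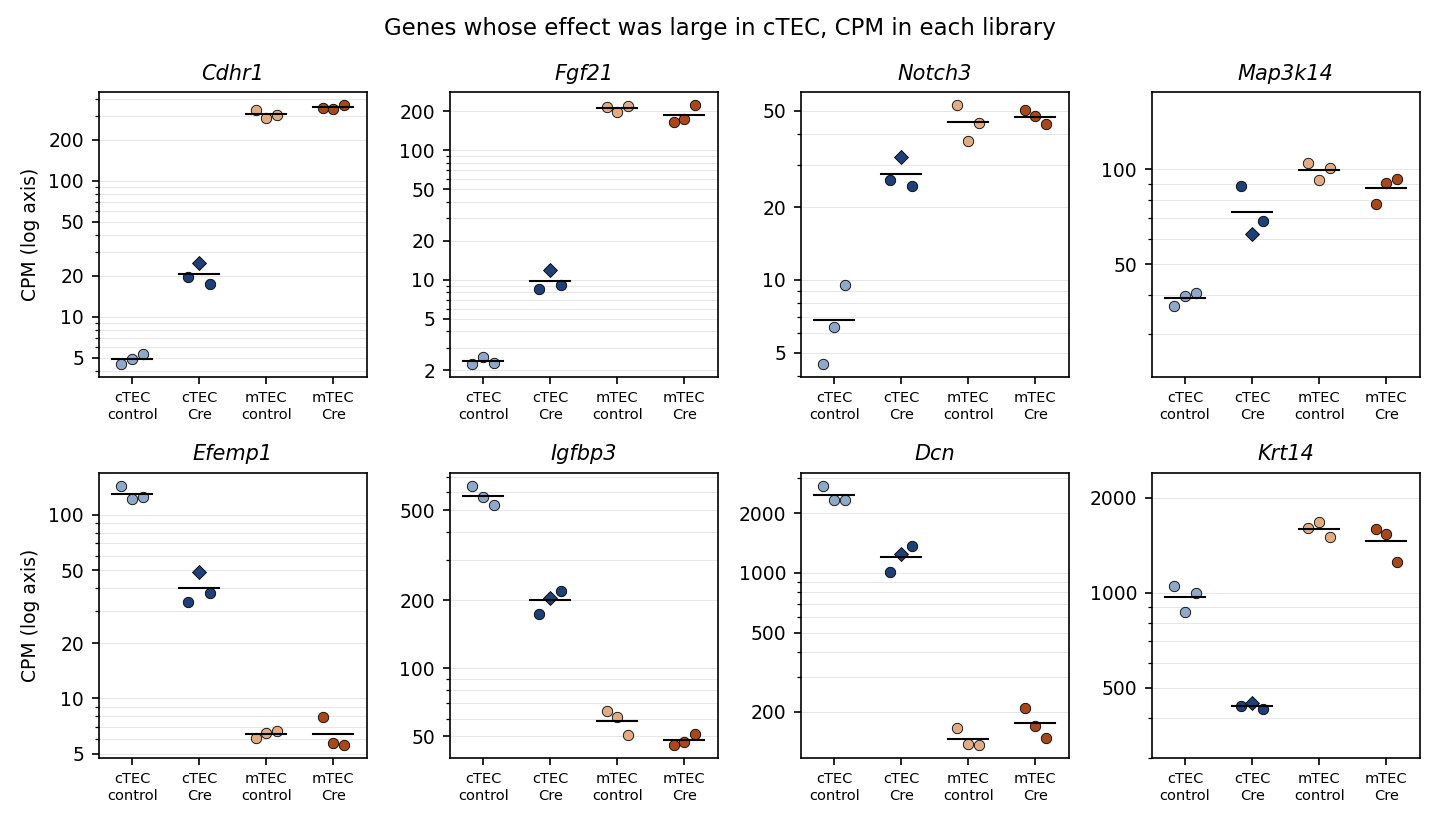
CPM of 8 genes in each library, on log axes, by group; bars are group means and the diamond is library 11. The upper row shows genes that rose in Cre cTEC toward the mTEC level, the lower row genes that fell in Cre cTEC, of which Efemp1, Igfbp3 and Dcn are low in mTEC and Krt14 is high there.

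Among single genes with the lower effect in cTEC, outside lipid metabolism, were some that encode secreted proteins. Efemp1, fibulin-3, fell from 144, 121 and 125 CPM to 33.5, 48.6 and 37.6 in cTEC and held 5.58 to 7.91 CPM in every mTEC library. Every Cre cTEC library lay below every control, and the difference was -1.72 ± 0.24 (adjusted p = 0.000969). Igfbp3, which binds insulin-like growth factors, fell from 639, 569 and 524 CPM to 173, 204 and 220 in cTEC and had an mTEC effect of -0.29, for a difference of -1.24 ± 0.18 (adjusted p = 0.000969). Dcn, decorin, a proteoglycan that binds collagen and TGF-β, fell from 2738, 2336 and 2326 CPM to 1015, 1241 and 1362, with a difference of -1.29 ± 0.21 (adjusted p = 0.0022).

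Krt14, a keratin of basal epithelium, fell from 1047, 865 and 994 CPM to 438, 445 and 429 in cTEC. In mTEC it stood at 1605, 1674 and 1499 CPM in controls and at 1595, 1538 and 1247 in Cre libraries. The mTEC groups overlapped, and the difference was -1.02 ± 0.18 (adjusted p = 0.00311). Cxcr7, a scavenger receptor of Cxcl12, had effects of -1.63 and -0.05 and a difference of -1.58. Krt14, Dcn and Cxcr7 were 3 of 15 tested genes of immature mTEC, 20% of that list against 1.08% of all genes. In that list 0 had the higher effect and the median difference was -0.46. Without library 11, 5 of its members had the lower effect. Dkk3 and Nkd1, which act on or under Wnt signalling, had differences of -1.41 and -1.35. The endocytic adaptor Dab2 had one of -1.53 and Ism1, a secreted angiogenesis inhibitor, one of -2.49. Ism1 was low, at 15.6 to 19.5 CPM in control cTEC and 2.35 to 3.80 in Cre cTEC. Ttpa, the α-tocopherol transfer protein, rose in mTEC, from 1.89, 2.08 and 1.44 CPM to 5.78, 4.67 and 3.13, and had a difference of -1.94 ± 0.36 (adjusted p = 0.00491).

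Collagen and matrix genes went both ways. Of 25, 24% passed, against 4.01% of all genes. The effect in cTEC was the lower for 3 (Dcn, Lum and Thbs1) and the higher for 3 (Fbn1, Col1a1 and Col3a1), with a median difference of -0.01. Without library 11, 6 had the lower effect, and without library 3 or 5 it was 1. Col1a1 had effects of 0.74 and -0.81 and a difference of 1.55, and Col3a1 effects of 0.82 and -0.76 and a difference of 1.58, the latter not called in the robust fit. The 13 fibroblast and mural cell markers, which include both collagens, summed to 395 to 532 CPM in control cTEC and 564 to 699 in Cre cTEC, and to 1513 to 1660 and 1631 to 2020 in mTEC. Their part in these 2 genes was not tested. Lum lost its call without library 3, 4, 5 or 9, and Thbs1 without any library other than 4 and 11 (adjusted p up to 0.093 and 0.135).

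For 42 genes with a positive difference the fall in mTEC passed its own test and the cTEC effect did not. Krt10, a keratin of differentiated, cornifying cells, stood at 59.1, 58.0 and 76.6 CPM in control mTEC and at 33.5, 20.6 and 29.2 in Cre mTEC. In cTEC it stood at 24.4, 24.1 and 26.7 CPM in controls and 21.5, 18.7 and 21.6 in Cre libraries. The difference was 0.93 ± 0.22 (adjusted p = 0.0218), with no call when 3, 5 or 7 was left out (highest adjusted p 0.0682). Lor, loricrin of the cornified envelope, fell from 19.6, 13.2 and 17.0 CPM to 7.45, 7.68 and 7.89 in mTEC and held 2.78 CPM or less in every cTEC library, with a difference of 2.16 ± 0.40 (adjusted p = 0.00511). Its cTEC effect of 1.04 did not pass, although the cTEC groups did not overlap. In the corneocyte list 10 of 26 genes fell and 0 rose in mTEC by their own tests, while in cTEC 2 fell and 2 rose. Over all genes 2.07% passed in mTEC and 9.01% in cTEC, in either direction. The median difference of the corneocyte list was 0.83, and 0.16 without library 11, and 2 members, Krt10 and Lor, passed (7.69% against 4.01% of all genes). The count of members was 1 without library 3, 5 or 7, 3 without library 4, 6 or 11, 4 without library 10 and 5 without library 12. It was 10 with no filter, and 4 with DESeq2 and with length and GC offsets.

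The nuclear receptor coactivator Ncoa2 had a difference of 0.65 (adjusted p = 0.0191), not called without library 1, 3 or 9 (highest adjusted p 0.0702) or with the length and GC offsets. Nlrc5, the transactivator of MHC class I genes, had a difference of 1.05 (adjusted p = 0.00263), yet it was 1 of 16 class I genes to pass (6.25% against 4.01% of all genes). Cxcl10, an interferon-induced chemokine, had a difference of 1.10 (adjusted p = 0.00807), and the median over 28 interferon response genes was -0.09. Mmp9, a gelatinase, rose in cTEC from 121, 151 and 104 CPM to 445, 284 and 380, with an mTEC effect of 0.56 that did not pass and a difference of 1.00 (adjusted p = 0.0116).

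In 14 lists no member passed, among them S phase, mitosis, fatty acid oxidation, oxidative phosphorylation, ribosomal proteins, lysosome and autophagy, tuft cells and markers of thymocytes, B cells and endothelium. Of the 296 genes in these 14 lists edgeR called 0, 18 had an unadjusted p below 0.05, DESeq2 called 2 and voom 1. Of all 17268 genes edgeR called 4.01%, and 2810 had an unadjusted p below 0.05. Medians of the oxidative phosphorylation, ribosomal protein and mitosis lists were 0.03, -0.05 and -0.07, near the -0.04 of all genes. The 12 endothelial markers had the lowest median of any list, -0.93, at summed levels of 97.0 CPM or less in every library, and 4 of them had an unadjusted p below 0.05.

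**Figure D5:**
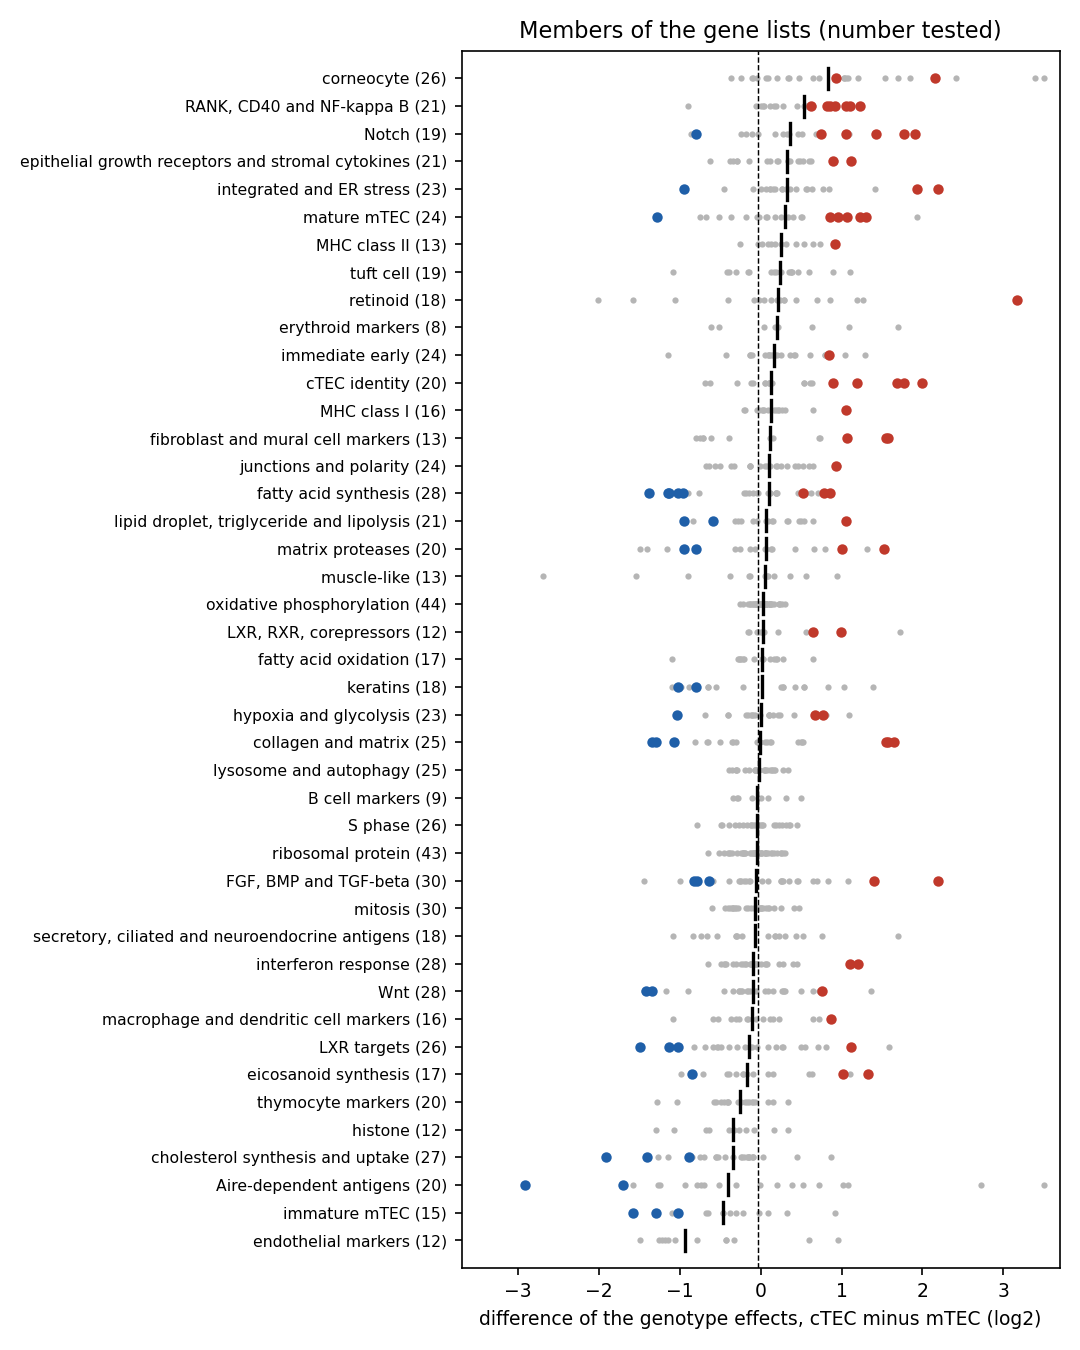
Each point is a tested member of 1 of 43 gene lists, placed by its difference (cTEC effect minus mTEC effect, log2), with list medians as black bars and the median of all genes as the dashed line; points beyond 3.5 are drawn at 3.5. Red members passed with the higher effect in cTEC and blue ones with the lower, and the RANK, CD40 and NF-κB list and the Notch list hold 7 and 5 red points.

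Genes with the higher effect in cTEC had longer transcripts than all tested genes. The longest transcript had a median of 6093.5 bases for the 502 genes with the higher effect in cTEC that have a length, 3065.5 bases for those with the lower effect and 3261 bases over all tested genes, and median GC contents were 52.5%, 48% and 49.6%. With offsets for length and GC content in each library, 391 genes passed, 274 higher and 117 lower, and 358 of them were among the 692. The 1644 genes that passed without library 11 included 683 of the 692, and the 371 without library 1 included 368. In all, 310 of the 692 passed in every fit without 1 library, and 232 also under every other setting, 179 with the higher effect in cTEC and 53 with the lower. No called gene changed its direction in any of these fits.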

How the data were processed

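Per the labels' protocols, thymuses were digested with Liberase TH and DNase, the sorted cells lysed, and RNA libraries made with the SMARTer Low Input kit v.4. Strand is not marked by this kit, and antisense partners therefore cannot be told apart. The authors deposited raw read counts per gene symbol for the 12 libraries. The submitters' processing notes name STAR, HTSeq, edgeR and the build mm9. Versions, and how multi-mapping reads were treated, are not given here by any source used. Because the reference at hand was of another build, no gene coordinates are given.

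One edgeR 4.0.16 quasi-likelihood fit (R 4.3.3) of the 4 groups used TMM scaling, filterByExpr by group and Benjamini-Hochberg adjustment over 17268 genes, two-sided, threshold 0.05. Every adjusted p is from edgeR unless another tool is named. CPM values are TMM-scaled. Errors of log2 differences are standard errors (n = 3 libraries a group). The script was tested on simulated data with known differences in genes of at least 5 CPM. It called 46% of differences of 1 log2 unit, 100% of those of 1.5, 2 or 3, and 11 unchanged genes. The simulated spread depended on the mean level alone, so the shares found in the real data may differ. Alternatives were DESeq2 size factors, DESeq2 1.42.0, a robust fit, limma 3.58.1 (voom, sample weights), other filters, length and GC offsets (GENCODE M21, 98.01% of genes matched), a minimum-size test and leaving out each library.

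Named genes were a fixed set (receptors, their targets, cTEC genes and Aire), up to 15 a direction with the largest differences and up to 10 with the lowest p (mean at least 5 CPM, groups apart in a cell type), up to 6 called members a list, and up to 10 with called effects of opposite sign; the member with the lowest p of a list without a call could also be named. Acsl1, Acsl4, Tnfaip3 and the genes under other observations lie outside this rule and were chosen after their values were seen. The comparison, the members and the 43 lists were chosen with earlier results of these data known. The labels give no batch and no number shared between groups. Results for a few genes are not reported here.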

Additional observations from a re-analysis of the deposited data

Results flagged for a closer look

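For each of 112 reported called genes that the naming rule picked, the test of the difference itself passed: 66 had the higher effect in cTEC and 46 the lower. Of these, 71 passed in every fit without 1 library, and 65 also under each of the 7 other settings. In cTEC Cre, library 10 lay within the range of the cTEC controls for 2 of the 112 genes, library 11 for 11 and library 12 for 6. These low counts were partly set by the choice of genes, which were called. Part of the naming rule also asked for groups apart in a cell type. For Abcg1, Scd2, Sst, Csn2, Serpina7, Cdhr1 and Hdc the difference in CPM had the other sign than the difference in log2 units. All values that follow are log2 differences (cTEC effect minus mTEC effect).

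Among lipid genes the differences were -1.49 for Abcg1, -1.41 for Fdft1, -1.38 for Mid1ip1, -1.14 for Fads1, -1.13 for Srebf1, -1.03 for Scd2, -0.97 for Acsl3, -0.95 for Vldlr, -0.89 for Sc4mol and -0.59 for the cholesteryl ester hydrolase Nceh1. They were 0.86 for Me1, 1.05 for the fatty acid binding protein Fabp5, 1.12 for Abca7 and 1.51 for Abca2. Nceh1 and Fabp5 each kept the call in only 3 of the 12 fits without 1 library. In eicosanoid synthesis the lipoxygenases Alox12e and Alox15 had 1.33 and 1.02, and the prostaglandin E synthase Ptges had -0.84.

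Of cTEC function and progenitor support, Ccl25 had 2.00, Dll4 1.77, Tbata 1.69, Ly75 1.19, the cytokine Flt3l 1.11 and Kitl 0.90. In the RANK and mature mTEC lists Cd274 had 1.30, Cd40 1.23, Map3k14 1.11, Irf8 1.07, Rel 1.05, Fezf2 0.96, Traf3 0.92, Tnfrsf11a 0.86, Nfkb2 0.82 and Hdc -1.28. Notch3 had 1.91, Heyl 1.42, Notch2 1.06, Notch1 0.75 and Dll1 -0.80. Nlrc5 had 1.05, the class II modulator H2-Oa 0.92, and the chemokines Cxcl9 and Cxcl10 1.20 and 1.10. The transcription factor Zbtb46 had 0.87, Ncoa2 0.65, and Fosl2, a subunit of AP-1, 0.84.

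Of 30 tested genes of FGF, bone morphogenetic protein and TGF-β signalling, 16.7% passed, against 4.01% of all genes, with a median difference of -0.06. The effect in cTEC was the lower for 3 of them: Id1 had -0.83, Id3 -0.78 and the inhibitory Smad6 -0.64. It was the higher for 2, the secreted antagonist Grem1 with 1.41 and Fgf21, given below. Id1, Id3 and Smad6 had cTEC effects of -0.59, -0.49 and -0.37 and mTEC effects of 0.24, 0.30 and 0.27. Each of these 3 lost its call in at least 7 of the 12 fits without 1 library. In Wnt signalling Dkk3 had -1.41, Nkd1 -1.35 and the Dickkopf receptor Kremen1 0.76. The hypoxia-responsive genes Egln3, Vegfa and Ndrg1 had 0.77, 0.67 and -1.03.

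Matrix and structural genes had -1.72 (Efemp1), -1.62 (Col8a1), -1.35 (Lum), -1.29 (Dcn), -1.07 (Thbs1), -1.78 (Adamts19), -0.95 (Mmp11), -0.80 (Timp2), 1.65 (Fbn1), 1.58 (Col3a1), 1.55 (Col1a1), 1.52 (Mmp15) and 1.00 (Mmp9). Keratins and epithelial proteins had -1.02 (Krt14), -0.80 (Krt7), 0.93 (Krt10), 2.16 (Lor) and 0.94 (the tight junction protein Tjp1), and the smooth muscle myosin Myh11 had 1.07.

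Further genes with the higher effect in cTEC were Lrat (3.17), Sec14l5 (2.92), Fgf14 (2.47), Crip3 (2.39), Spp1 (2.28), Rnf183 (2.28), Fgf21 (2.20), Spnb1 (2.09), Kndc1 (2.04), Slc22a7 (2.02), Atp7b (2.00), Sipa1l2 (1.97), Trib3 (1.94), Cdhr1 (1.87), Itpr3 (1.70), Pkdcc (1.69), Plxnd1 (1.68), Tmed8 (1.44), Tle3 (1.37), Basp1 (1.33) and Gtf3c1 (1.23). Spp1, osteopontin, fell in mTEC from 71.9, 66.2 and 75.8 CPM to 34.1, 31.5 and 47.1, and its cTEC libraries held 5.44 CPM or less. Without library 8 it was not called.

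Further genes with the lower effect in cTEC were Ism1 (-2.49), Ptplad2 (-2.23), Me3 (-2.18), Ttpa (-1.94), Arhgap20 (-1.78), Vgll3 (-1.69), Osr2 (-1.62), Serpina7 (-1.60), Gdpd2 (-1.59), Cxcr7 (-1.58), Dab2 (-1.53), Sgce (-1.44), Igfbp3 (-1.24), Khdrbs3 (-1.21) and Sorbs3 (-1.03). Me3 and Arhgap20 had library 10 as their lowest cTEC library, at 5.81 and 9.72 CPM, with library 11 at 19.8 and 24.5 CPM, near the controls. Somatostatin (Sst) and the casein Csn2, tissue antigens of mTEC, had differences of -2.92 and -1.70. In Cre cTEC Sst was at 0.389 CPM or less and Csn2 at 1.94 CPM or less, so both rest on few counts. Sst was called without 5, 6, 7 or 11 and not without any other library, and Csn2 was not called without 8, 9 or 10.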

How the results depend on the processing

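The count of 692 was 1121 with DESeq2, 1398 with voom, 391 with length and GC offsets and 1140 with no filter, and leaving out each library gave 371 (library 1) to 1644 (library 11). The 305 with at least a 2-fold difference became 546 with voom, 567 with no filter, 42 when tested against 1.5-fold, and 220 to 749 without 1 library (libraries 1 and 11). DESeq2 size factors gave 783 calls, 80.1% higher against 73.0%, and moved the median of all genes by 0.049 on the log2 scale; no filter moved it by 0.082. The cause of these shifts was not tested.

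Differences that turned sign were all uncalled. Nr1h2 was 0.00 with offsets and Nr1h3 was 0.02 with voom. Without 1 library Nr1h2 ran from -0.03 to 0.26, Nr1h3 from -0.30 to 0.16, Foxn1 from -0.27 to 1.00, Scd1 from -0.12 to 0.24 and Vpreb3, a B cell gene, from -0.11 to 1.13. No called gene turned sign. With 3 libraries a group, no difference under 0.51 passed, and leaving out library 11, the shallowest, moved the count the most. No paired analysis was possible because the groups share no replicate numbers.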

Other observations

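The genes in this section were chosen after their values were seen. Several immune genes of mTEC fell in mTEC with no called effect in cTEC. Pdcd1lg2, which encodes PD-L2, stood at 45.5, 39.6 and 40.0 CPM in control mTEC and at 18.1, 17.3 and 20.5 in Cre mTEC, and at 6.41 to 8.33 CPM in every cTEC library. Its difference was 1.06 ± 0.21 (SE, adjusted p = 0.00817). Il2ra, the α chain of the interleukin-2 receptor, had effects of 0.45 in cTEC and -0.70 in mTEC and a difference of 1.16. Ccl11, eotaxin, fell in mTEC from 583, 539 and 498 CPM to 310, 200 and 201, with a difference of 1.45. The neuropeptide gene Tac1 and the glutathione transferase Gsta4 fell in mTEC with differences of 1.71 and 1.46. Pla2g7, a phospholipase that cleaves oxidised lipids, rose in mTEC from 10.1, 7.66 and 9.28 CPM to 15.7, 21.8 and 20.3 and held 85.7 to 125 CPM in every cTEC library, for a difference of -1.07. These 6 genes were called in every fit without 1 library and under every other setting.

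A few genes rose in cTEC with no called effect in mTEC. Tln1, talin, stood at 209, 218 and 184 CPM in cTEC controls and at 457, 405 and 367 in Cre cTEC, and at 167 to 229 CPM in every mTEC library, with a difference of 1.15 ± 0.17 (adjusted p = 0.00121). The differences were 1.40 for Tln2, 1.56 for Actn3, 1.06 for the kinase Mtor and 1.10 for Htt. Tln1, Tln2, Mtor and Htt have longest transcripts of 8393 to 13215 bases and Actn3 one of 2887 bases, and all of these stayed called with length and GC offsets. Fcgbp, a mucin-like protein, rose in cTEC (0.95) and fell in mTEC (-0.83). Pde1b and Rragd rose in both cell types, by 1.91 and 0.56 and by 1.37 and 0.47 log2 units, and by the larger factor in cTEC. The difference in CPM was -17.0 for Pde1b and 2.1 for Rragd, so for Pde1b this direction holds for the fold change only.

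A few other genes fell in cTEC. Gas1 went from 3034, 2460 and 2501 CPM to 1074, 1429 and 1364, with a difference of -1.19. Igfbp2, Fst, Wnt6 and Fgf9 had differences of -1.14, -1.02, -1.01 and -1.10, with mTEC effects between -0.02 and 0.36 that did not pass. The coagulation initiator F3 fell in both, by 1.58 in cTEC and by 0.69 in mTEC.

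Among called genes, 11 predicted genes picked by their Gm names had the lower effect in cTEC, with differences of -2.00 to -1.44. Their mTEC effects were 1.19 to 1.97 and their cTEC effects -0.39 to -0.02. Because only called genes were picked, their calls and in part these sizes were set by that choice. Genes with such names that were tested and not called were not counted. Over all tested genes 1.08% were called with the lower effect in cTEC. The most abundant, Gm10800, stood at 1029, 1796 and 3900 CPM in control mTEC and at 5269, 6579 and 5226 in Cre mTEC. Of the 11, 3 were called in every fit without 1 library and 6 with length and GC offsets. The sharing of reads between near-identical copies was not tested.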
